A study of Homo sapiens with 6 samples.

Results

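The annexin family was described in the RNA of adrenocortical carcinoma cells from 10 genes, taken by name from a table of 57341 genes: ANXA1, ANXA2, ANXA3, ANXA4, ANXA5, ANXA6, ANXA7, ANXA9, ANXA11 and ANXA2R. Of these, 8 had enough counts to be tested, while ANXA3 and ANXA9 had too few. The RNA came from 3 libraries labelled H295R, the parental human adrenocortical carcinoma line, and 3 labelled H295R-PM-Ptc+, a population sorted from that line by flow cytometry for Ptch1 (the Hedgehog receptor Patched) at the plasma membrane and then amplified. Both were grown in DMEM/F12 with NuSerum and received no treatment. They are therefore a single line and a single sorted population, and since nothing states that the replicates came from separate cultures, the p-values measure the spread between these libraries, which may be technical.

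The libraries held 23264403 to 25813247 counted fragments each, and 16710 genes were tested with edgeR's quasi-likelihood test (two-sided, Benjamini-Hochberg adjustment over all tested genes). Levels are CPM (counts scaled to a common library size, here with the TMM factors of edgeR), and differences are log2 fold changes, positive where the libraries labelled H295R-PM-Ptc+ had the higher level. PTCH1 went against the labels: its level was 21.3 ± 2.56 CPM under the H295R label and 12.2 ± 2.19 CPM under the other (SD, n = 3; log2 fold change -0.81, SE 0.147, adjusted p = 0.0207), a call lost without H295R replicate 2 (adjusted p = 0.0799) or 3 (0.0921) or H295R-PM-Ptc+ replicate 2 (0.0618). PTCH1 kept its direction in all 14 alternative fits and its call in 11, among them DESeq2 (adjusted p = 9.91e-05). Its values did not overlap between the groups, as for 23.5% of all tested genes. In addition, the study's own normalized values of the same libraries carry the group names the other way round. The replicates numbered 1 stood apart in both groups: the chi-square per gene against the other replicates of the group was 19.7 to 28.8, while it was 6.07 and 10.5 between replicates 2 and 3. Every direction below is therefore that of the libraries as labelled, and it turns if the names were exchanged. Of 10 adrenocortical markers, 9 were tested and 1 was called (CYP21A2, a steroid 21-hydroxylase, higher), against 3.73% of all tested genes. With the replicate number as a block in the fit, which called 22.5% of all tested genes, 2 were higher, STAR among them with adjusted p = 3.91e-06, and CYP11A1 was lower with 0.001. The summed level of the markers was 969 to 1240 CPM in the libraries labelled H295R and 1040 to 1330 CPM in the others, while CYP11B1 had 0 to 3 counts per library.

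Annexins are cytosolic proteins that bind phospholipid membranes in the presence of calcium, through a core of repeated domains, and differ mainly in their N-terminal ends, which hold the sites for their protein partners. They take part in membrane repair, in the traffic of vesicles and endosomes and in the anchoring of the actin cytoskeleton to membranes. ANXA2R is not an annexin itself but a membrane protein named as a receptor for annexin A2. In the adrenal gland and its target tissues, annexin A1 is best known as a protein induced by glucocorticoids that dampens inflammation.

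Of the 8 tested genes, 3 rose in H295R-PM-Ptc+ as labelled. These were ANXA1 (4.49-fold), ANXA2 (3.09-fold) and ANXA11 (1.62-fold), while edgeR called 0 lower (1, ANXA6, at an unadjusted p under 0.05), against a background of 624 of 16710 genes called in either direction (3.73%; 404 higher, 2.42%; 220 lower, 1.32%). The median log2 fold change of the 8 was 0.14, against 0 over all tested genes, whose 5th and 95th percentiles were -0.44 and 0.56. With the replicate number as a block in the fit, 4 of the 8 were called, 3 higher and 1 (ANXA6) lower, against 3758 genes (22.5%; 12.1% higher, 10.4% lower). DESeq2 also called 4 of the 8, against 4.37% of all the genes it tested. The values of these 4 genes did not overlap between the groups, 3 of them higher and 1 lower, while 23.5% of all tested genes had non-overlapping values, 12.4% in the higher direction and 11.2% in the lower. The members ANXA1, ANXA2, ANXA2R and ANXA6 are also in a gene module that the study chose on these libraries, so their change is not independent evidence of that module.

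**Figure D1:**
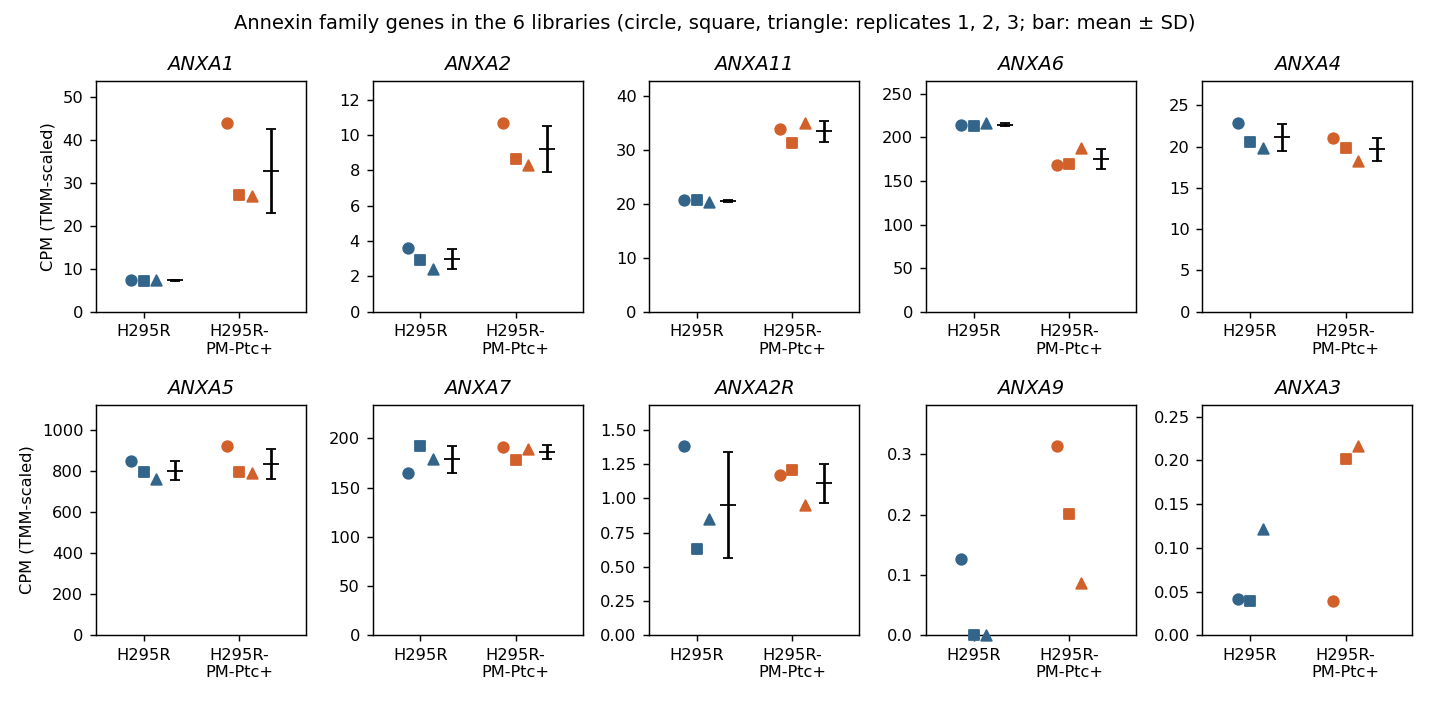
Level of each of the 10 genes in each library (TMM-scaled CPM, linear axis from 0), with circles, squares and triangles for replicates 1, 2 and 3 and bars for the mean ± SD of 3 libraries, left out for ANXA9 and ANXA3, which have at most 8 counts in a library. ANXA1, ANXA2 and ANXA11 lie higher in all 3 libraries labelled H295R-PM-Ptc+, ANXA6 lies lower in all 3, and the other genes overlap or have few counts.

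The promoters of the 3 genes that were higher are shown with that of ANXA5, the most abundant annexin, to compare the sequence before their starts. Each is the 250 bases before a RefSeq transcript start (GRCh38.p14), written 5′ to 3′ along the gene's strand. Capitals mark the letters TATAAA (bound by the TBP protein), TGANTCA (the AP-1 motif), GGGCGG (the SP1 motif) and CCAAT (bound by the factor NF-Y), searched on both strands (a match on the other strand reads as its reverse complement), and overlapping GGGCGG matches run together.
ANXA1 (chr9:73151615-73151864, strand +): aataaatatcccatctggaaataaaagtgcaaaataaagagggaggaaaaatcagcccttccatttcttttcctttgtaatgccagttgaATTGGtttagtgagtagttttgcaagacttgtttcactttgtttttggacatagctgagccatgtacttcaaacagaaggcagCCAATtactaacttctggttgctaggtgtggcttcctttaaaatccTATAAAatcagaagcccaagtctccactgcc
ANXA2 (chr15:60397987-60398236, strand -): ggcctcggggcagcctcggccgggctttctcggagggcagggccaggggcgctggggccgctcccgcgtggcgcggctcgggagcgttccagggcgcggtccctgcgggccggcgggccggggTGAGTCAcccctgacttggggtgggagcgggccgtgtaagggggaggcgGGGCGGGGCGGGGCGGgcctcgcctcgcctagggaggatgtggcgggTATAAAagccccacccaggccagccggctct
ANXA11 (chr10:80205809-80206058, strand -): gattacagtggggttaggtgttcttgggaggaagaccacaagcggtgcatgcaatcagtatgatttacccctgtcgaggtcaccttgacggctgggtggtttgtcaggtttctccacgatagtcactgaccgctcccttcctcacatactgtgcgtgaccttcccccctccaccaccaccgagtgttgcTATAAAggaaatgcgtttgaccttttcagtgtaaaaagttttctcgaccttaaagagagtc
ANXA11, second start (chr10:80205538-80205787, strand -): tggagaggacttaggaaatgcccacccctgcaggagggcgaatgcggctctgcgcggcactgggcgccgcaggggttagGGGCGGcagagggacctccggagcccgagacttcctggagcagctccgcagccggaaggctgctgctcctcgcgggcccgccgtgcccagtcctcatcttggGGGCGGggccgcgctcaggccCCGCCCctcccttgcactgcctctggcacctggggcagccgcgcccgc
ANXA5 (chr4:121696981-121697230, strand -): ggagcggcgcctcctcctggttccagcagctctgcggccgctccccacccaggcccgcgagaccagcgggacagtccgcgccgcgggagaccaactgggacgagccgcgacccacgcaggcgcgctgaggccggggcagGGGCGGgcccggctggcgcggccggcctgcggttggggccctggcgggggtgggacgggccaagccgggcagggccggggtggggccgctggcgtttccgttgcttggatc

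The letters TATAAA were present in 10.7% of 35116 promoter windows of this length, TGANTCA in 6.57%, GGGCGG in 42.6% and CCAAT in 32.0%. The TATAAA match began 31 bases before the start in both ANXA1 and ANXA2 and 61 bases before it in ANXA11, of which it was found in 1 of 3 windows. That ANXA11 window had 50.0% GC and 9 CpG, while the second, also shown, had 73.6% GC, 22 CpG and 3 matches of GGGCGG, and the third 52.0% GC, 5 CpG and 1 match of CCAAT. Of the 15 promoter windows of the members, no other held TATAAA. The ANXA11 window that held it (chr10:80205809-80206058) lies before a start outside the counted gene, which reaches only to chr10:80205572. The starts of the other ANXA11 windows lie inside the counted gene. ANXA1 and ANXA2 otherwise differed in composition: the ANXA1 window had 38.4% GC and 0 CpG, while the ANXA2 window had 78.0% GC and 28 CpG, against medians of 58.0% and 11 over all windows. The ANXA5 window had 78.8% GC and 31 CpG and no TATAAA. A match is only these letters in this window.

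ANXA1 encodes annexin A1 (lipocortin 1), which inhibits cytosolic phospholipase A2 and binds the formyl peptide receptors. The gene lies at chr9:73151757-73170393 on the plus strand (hg38). Its level was 7.41, 7.17 and 7.36 CPM in H295R replicates 1, 2 and 3 and 44.1, 27.2 and 27.1 CPM in the H295R-PM-Ptc+ replicates, that is 177, 182 and 182 counts against 1128, 675 and 627. All 3 libraries labelled H295R-PM-Ptc+ lay above the others, replicate 1 farthest. The mean was 32.8 ± 9.82 CPM against 7.31 ± 0.129 CPM (SD, n = 3; log2 fold change 2.17, SE 0.195, 95% interval 1.72 to 2.61, adjusted p = 0.000778). Without H295R-PM-Ptc+ replicate 1 the log2 fold change was 1.88 (adjusted p = 0.000386). Without both libraries numbered 1, an alternative chosen after the data were seen that called 12.0% of the genes tested, it was 1.90 for ANXA1 (adjusted p = 2.09e-06), 1.66 for ANXA2 (7.08e-05), 0.69 for ANXA11 (0.000423) and -0.27 for ANXA6 (0.0134).

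ANXA2 encodes annexin A2, which with S100A10 forms a heterotetramer that links membranes to actin and binds plasminogen. It lies at chr15:60347134-60402883 on the minus strand. Its level was 3.60, 2.91 and 2.43 CPM in the H295R replicates and 10.7, 8.65 and 8.29 CPM in the H295R-PM-Ptc+ replicates (86, 74 and 60 against 273, 215 and 192 counts). The groups did not overlap and within each the order of the replicate numbers was the same. The mean was 9.21 ± 1.29 against 2.98 ± 0.589 CPM (SD, n = 3; log2 fold change 1.63, SE 0.175, 95% interval 1.23 to 2.02, adjusted p = 0.00147). Reads of ANXA2 can map to its processed pseudogenes, of which ANXA2P1 and ANXA2P3 had 0 counts in all 6 libraries and ANXA2P2 had 0, 1 and 1 against 2, 4 and 5. When their counts were added to those of ANXA2, the log2 fold change was 1.64 (adjusted p = 0.00126).

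ANXA11 encodes annexin A11, which has a long N-terminal extension, binds the calcium sensor PDCD6 (ALG-2) and acts in cytokinesis and in the tethering of RNA granules to lysosomes. It lies at chr10:80150889-80205572 on the minus strand. Its level was 20.7, 20.7 and 20.4 CPM in the H295R replicates and 33.9, 31.4 and 35.1 CPM in the H295R-PM-Ptc+ replicates (495, 527 and 504 against 867, 780 and 812 counts). The 3 libraries of each group lay close together and far from the other group. The mean was 33.5 ± 1.89 against 20.6 ± 0.199 CPM (SD, n = 3; log2 fold change 0.70, SE 0.0782, 95% interval 0.52 to 0.88, adjusted p = 0.00177).

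ANXA6 encodes annexin A6, which has a duplicated annexin core and acts on endosomal cholesterol. It lies at chr5:151100712-151157882 on the minus strand. Its level was 214, 213 and 217 CPM in the H295R replicates and 168, 170 and 188 CPM in the H295R-PM-Ptc+ replicates (5106, 5403 and 5364 against 4293, 4221 and 4342 counts). The groups did not overlap, and replicate 3 of H295R-PM-Ptc+ was nearest to them. The mean was 175 ± 10.8 against 214 ± 2.24 CPM (SD, n = 3), and the log2 fold change was -0.29 (SE 0.0747, 95% interval -0.46 to -0.12, adjusted p = 0.0713). It passed the test without both libraries numbered 1, with the replicate block (log2 fold change -0.29, adjusted p = 0.000179) and in DESeq2 (-0.30, adjusted p = 0.0293).

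ANXA5, ANXA7, ANXA4 and ANXA2R did not pass the test. ANXA5 encodes annexin A5, which binds phosphatidylserine and is used as a label for dying cells, and lies at chr4:121667955-121697113 (minus strand). Its level was 850, 797 and 760 CPM against 920, 793 and 788 CPM. The groups overlapped, with the highest value in H295R-PM-Ptc+ replicate 1. The log2 fold change was 0.06 (SE 0.0907, 95% interval -0.15 to 0.26, adjusted p = 0.827), and it was -0.03 without H295R-PM-Ptc+ replicate 1.

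ANXA7 (chr10:73375101-73414076, minus strand) encodes synexin, first known for the aggregation of chromaffin granules. Its level was 165, 192 and 179 CPM in the H295R replicates and 191, 178 and 189 CPM in the H295R-PM-Ptc+ replicates. The values overlapped, and the log2 fold change was 0.06 (SE 0.0819, 95% interval -0.13 to 0.24, adjusted p = 0.797; -0.02 without both libraries numbered 1). ANXA4 (chr2:69644425-69826464, plus strand), an annexin abundant in secretory epithelia, had 22.9, 20.6 and 19.8 CPM against 21.0, 19.8 and 18.2 CPM. These values also overlapped, with a log2 fold change of -0.10 (SE 0.0953, 95% interval -0.31 to 0.12, adjusted p = 0.675).

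ANXA2R (chr5:43039081-43043170, minus strand) was read from 16 to 33 counts per library, at 1.38, 0.63 and 0.85 CPM against 1.17, 1.21 and 0.95 CPM. H295R replicate 1 was the highest of the 6 libraries and replicate 2 the lowest. The log2 fold change was 0.23 (SE 0.303, 95% interval -0.46 to 0.92, adjusted p = 0.775), and it ranged from 0.00 without H295R replicate 2 to 0.59 without H295R replicate 1. ANXA2R shares 115 exonic bases with AC025171.1 on the opposite strand, so counts there depend on the strand setting.

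ANXA9, whose core has lost calcium binding, and ANXA3, an annexin of neutrophils and other cells, were too low to test. ANXA9 had 3, 0 and 0 counts in the H295R replicates and 8, 5 and 2 in the H295R-PM-Ptc+ replicates, a ratio of 5.03 over the summed counts (3 and 15) with a 95% counting interval of 1.42 to 27.1. ANXA3 had 1, 1 and 3 against 1, 5 and 5 counts, a ratio of 2.21 (0.709 to 8.12). These intervals cover counting error only. With no filter on low counts, edgeR gave adjusted p = 0.29 for ANXA9 and 0.695 for ANXA3. The remaining annexins in the table were near or at 0: ANXA8 had 0 or 1 count per library, ANXA8L2 had 1 count in all, and ANXA10 and ANXA13 had 0, where 3 counts would be 0.117 to 0.130 CPM.

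**Figure D2:**
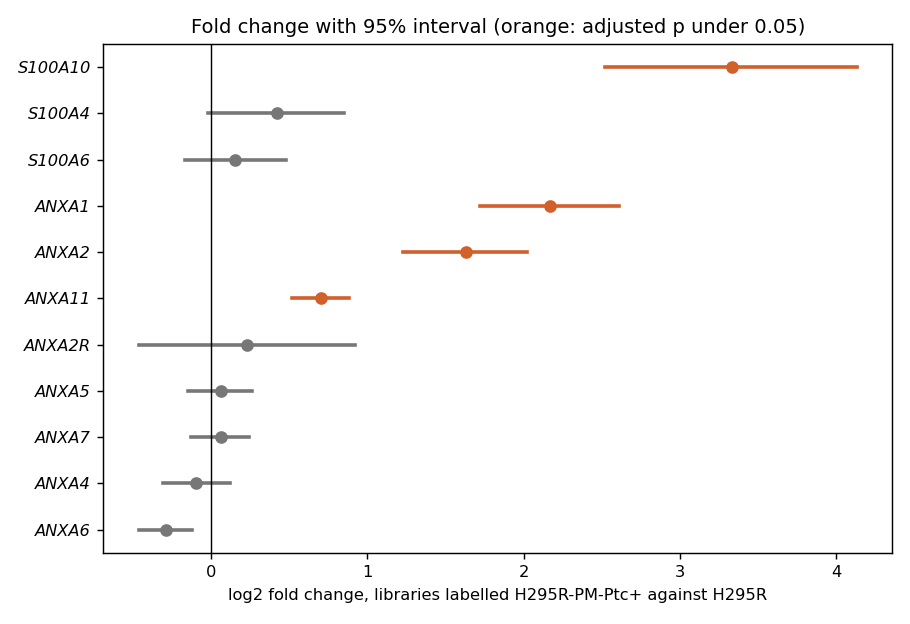
Log2 fold change (points) and 95% interval (lines) of the 8 tested genes and of 3 S100 partners, for the libraries labelled H295R-PM-Ptc+ against H295R. Orange marks an adjusted p under 0.05, which ANXA1, ANXA2, ANXA11 and S100A10 reach. Of the other intervals, that of ANXA6 lies below 0 (-0.46 to -0.12) and the rest include 0.

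Same-numbered replicates were compared one to one. The log2 ratios within the pairs 1, 2 and 3 were 2.57, 1.92 and 1.88 for ANXA1. They were 1.57, 1.57 and 1.77 for ANXA2 and 0.71, 0.60 and 0.78 for ANXA11. Each of these ratios was above 0. For ANXA6 they were -0.35, -0.33 and -0.21, each below 0. ANXA4 was also below 0 in each pair (-0.12, -0.06 and -0.12), although its values overlapped between the groups. For ANXA7 (0.21, -0.11 and 0.08), ANXA5 (0.11, -0.01 and 0.05) and ANXA2R (-0.23, 0.94 and 0.16) the sign differed between pairs.

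**Figure D3:**
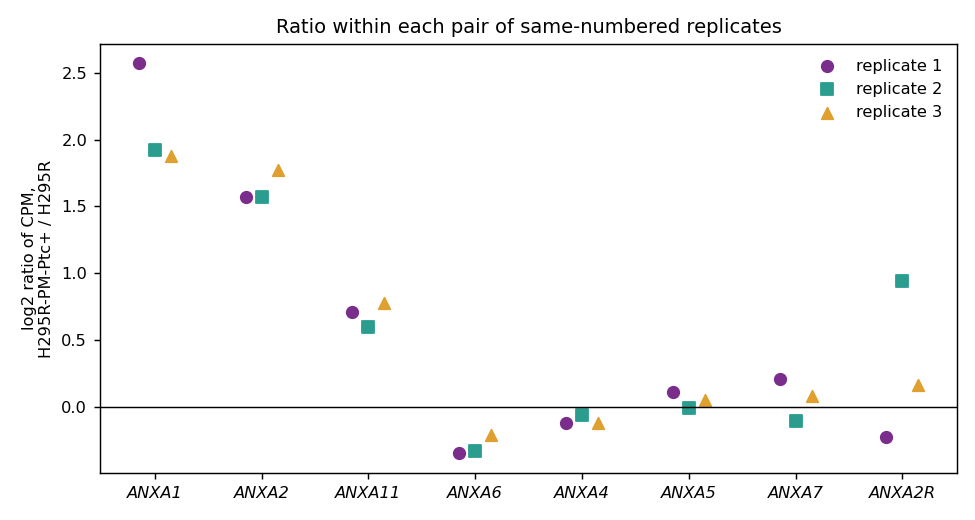
Log2 ratio of CPM (H295R-PM-Ptc+ over H295R) within each pair of same-numbered replicates, for the 8 tested genes. ANXA1, ANXA2 and ANXA11 lie above 0 in all 3 pairs, ANXA6 and ANXA4 below 0 in all 3, and ANXA5, ANXA7 and ANXA2R on both sides.

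Levels of different genes were compared per length, as CPM per kilobase of all exons of the gene. In the libraries labelled H295R, ANXA5 led with a mean of 265 (range 251 to 280), followed by ANXA7 with 62.4 (57.6 to 67.3) and ANXA6 with 39.5. These ranges do not overlap, but ANXA6 (74.2) and ANXA7 (73.2) did not differ beyond their spread when the canonical transcript was used as length, a choice made after the data were seen. ANXA11 (2.42), ANXA4 (2.12) and ANXA1 (1.60) followed, and their order changed with the length. ANXA2R (0.400) and ANXA2 (0.338) overlapped in range, but per canonical transcript ANXA2 was above ANXA2R with no overlap (1.92, range 1.56 to 2.32, against 1.00, range 0.664 to 1.46), and ANXA9 and ANXA3 were lowest. In the libraries labelled H295R-PM-Ptc+, ANXA1 moved up to the fourth place with 7.19 (5.94 to 9.68), behind ANXA6 with 32.3 (30.9 to 34.6), and ANXA2 reached 1.04 (0.94 to 1.21), ahead of ANXA2R with 0.465 (0.398 to 0.506). Of the summed per-length levels of the 10 genes, ANXA5 held 70.8% and 71.0% in the libraries labelled H295R and H295R-PM-Ptc+, and ANXA1 0.43% and 1.84%. Per canonical transcript the shares of ANXA1 were larger, 0.796% and 3.36%.

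**Figure D4:**
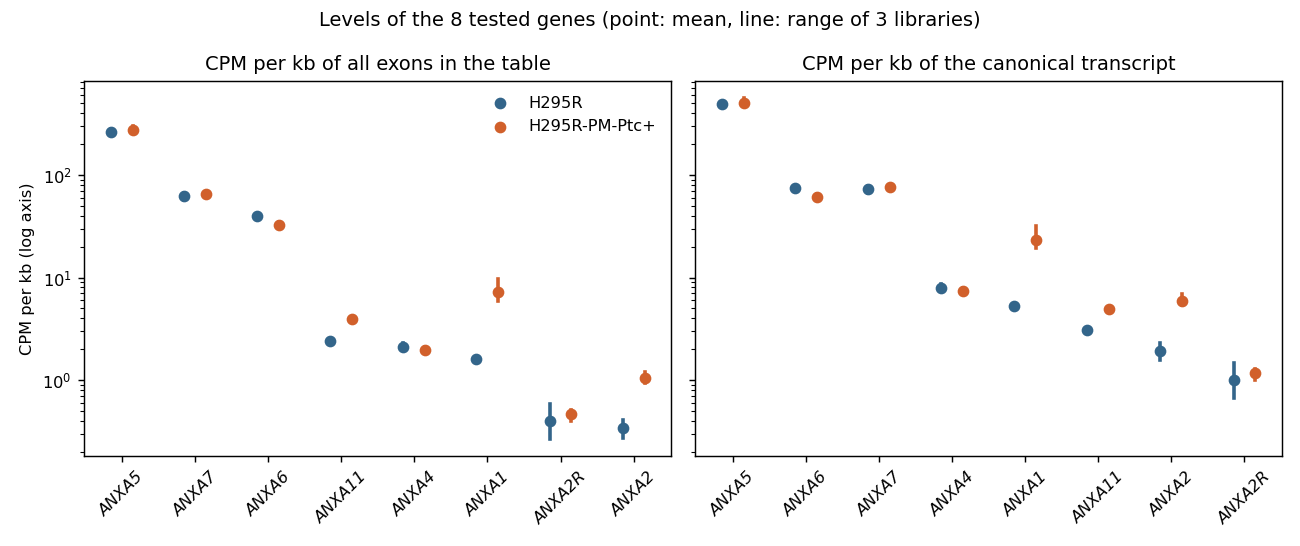
Level of the 8 tested genes as CPM per kilobase (log axis), per length of all exons (left) and of the canonical transcript (right), with points for the mean and lines for the range of 3 libraries. ANXA5 is highest on both scales, while in the libraries labelled H295R the pairs ANXA6 and ANXA7, and ANXA2 and ANXA2R, change places between the scales and ANXA11 moves behind ANXA4 and ANXA1, and in those labelled H295R-PM-Ptc+ ANXA11 moves behind ANXA4 and ANXA2.

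The genes whose pattern was most like that of ANXA1 over the 6 libraries (Pearson correlation of log2 CPM) were CD36 (0.9979), PRKAG2 (0.9971) and EIF4H (0.9968), of which CD36, a fatty acid and lipoprotein receptor, differed by 0.82 on the log2 scale (adjusted p = 0.00188) and EIF4H, a translation initiation factor, by 0.04 (adjusted p = 0.852). For ANXA2 they were HEY2 (0.9968), C7 (0.9962) and GRB10 (0.9962). Of these, C7, a complement component, had the largest change (log2 fold change 3.74, adjusted p = 0.000325). These genes were picked as the highest of 16710 tested genes over only 6 libraries, so high correlations were fixed by the selection. ANXA1 correlated with ANXA2 at 0.98 and with ANXA6 at -0.96. All of these values share the same libraries and, except for that of EIF4H, a group difference. Among the 20 tested genes nearest to each locus, against 3.73% called over all tested genes, edgeR called 1 each at ANXA1 (ALDH1A1, higher), ANXA5 (FABP2, higher, not called by DESeq2, adjusted p = 0.0863) and ANXA6 (GPX3, higher), 2 at ANXA11 (CDHR1 and GRID1, lower) and 2 at ANXA2R (C7 higher and HMGCS1 lower). It called 0 at ANXA2, ANXA4 and ANXA7, where 4, 3 and 1 had an unadjusted p under 0.05 and DESeq2 called 0.

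Among 6 S100 proteins that bind annexins, 4 were tested and 2 were called, both higher, against 2.42% of all tested genes. Of these, S100A11 passed the filter on low values through the libraries labelled H295R-PM-Ptc+ alone, so it had to differ, and 1 partner, S100A10, was called when each library had to hold 10 or more counts. S100A10, the partner of ANXA2, had 16, 14 and 24 counts in the H295R replicates and 280, 140 and 126 counts in the H295R-PM-Ptc+ replicates. It was 7.34 ± 3.13 against 0.731 ± 0.216 CPM (SD, n = 3; log2 fold change 3.33, SE 0.356, adjusted p = 0.00146), the largest value in H295R-PM-Ptc+ replicate 1, as for ANXA1. Without both libraries numbered 1 the log2 fold change was 2.86 (adjusted p = 3.97e-05). S100A11, the partner of ANXA1, had 1, 0 and 0 counts against 35, 19 and 22, a ratio of 76.4 (95% interval 13.3 to 3060, which covers counting error only; adjusted p = 0.00201). This ratio rests on 1 count in H295R replicate 1, without which that group is at 0. The fitted log2 fold change, which depends on the prior count, was 5.80, and 5.33 to 7.68 when 1 library was left out. The log2 fold change of S100A6 was 0.15 (adjusted p = 0.661) and that of S100A4 0.42 (adjusted p = 0.309), and both passed with the replicate block (adjusted p = 0.0266 and 0.00374). S100A1 and S100B had at most 2 counts in a library. S100A10 and S100A11 are in the same module of the study as ANXA1 and ANXA2.

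The receptors of annexin A1 were at the limit of detection, with 0 counts of FPR1 and FPR2 in all libraries and 1 count of FPR3. PLA2G4A, the cytosolic phospholipase A2 that annexin A1 inhibits, had 13, 21 and 17 counts in the H295R replicates and 4, 6 and 4 in the H295R-PM-Ptc+ replicates (log2 fold change -1.83, SE 0.348, adjusted p = 0.0249). All 3 libraries labelled H295R-PM-Ptc+ were lower. PLA2G4A passed the filter on low values through the libraries labelled H295R alone, so it had to differ, and it was not tested when at least 10 counts in every library were required. The call was lost in DESeq2 (adjusted p = 0.0592) and without any 1 of 5 libraries, H295R replicate 2 (0.1) or 3 (0.0921) or H295R-PM-Ptc+ replicate 1 (0.081), 2 (0.0719) or 3 (0.111).

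Of 18 genes of membrane repair in the table, 15 were tested and 1 was called, near the 3.73% of all tested genes, MYOF (myoferlin, a calcium sensor of plasma membrane fusion), at 20.3, 21.5 and 21.8 CPM against 33.7, 30.8 and 28.7 CPM (log2 fold change 0.55, SE 0.0873, adjusted p = 0.0106). All 3 libraries labelled H295R-PM-Ptc+ were higher, but the call was lost without H295R replicate 3 (adjusted p = 0.0545) or H295R-PM-Ptc+ replicate 2 (0.052). CAV1 (caveolin 1, of the plasma membrane caveolae), at 11, 5 and 10 counts against 21, 14 and 19, had a log2 fold change of 1.05 (SE 0.355, adjusted p = 0.161, and 0.0342 with the replicate block). Its groups did not overlap, which held for 3 of the 15 tested genes of membrane repair and for 23.5% of all tested genes. With the replicate block 3 of the 15 were called, all higher, against 12.1% of all tested genes. These were MYOF, CAV1 and AHNAK (log2 fold change 0.48, adjusted p = 0.000881 with the block, 0.534 without it). PDCD6, which annexin A11 binds, and PEF1 had log2 fold changes of 0.06 and 0.05 (adjusted p = 0.797 and 0.839). Of 9 genes that set or read the exposure of phosphatidylserine, the ligand of annexin A5, 7 were tested and 0 were called by edgeR, by DESeq2 or by limma-voom (0 at an unadjusted p under 0.05), and with the replicate block 2 were higher and 2 lower, against 12.1% and 10.4% of all tested genes. Of 9 copines, another family of calcium-dependent membrane binders, 8 were tested. CPNE9 was higher (log2 fold change 1.18, adjusted p = 0.0384) and CPNE4 lower (-0.96, adjusted p = 0.0367), against 2.42% of all tested genes called higher and 1.32% lower. CPNE9 lost its call without any 1 of the 6 libraries (adjusted p up to 0.155) and CPNE4 without any 1 of 5 (up to 0.145). With the replicate block 1 copine was higher and 3 were lower, against 12.1% and 10.4% of all tested genes.

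**Figure D5:**
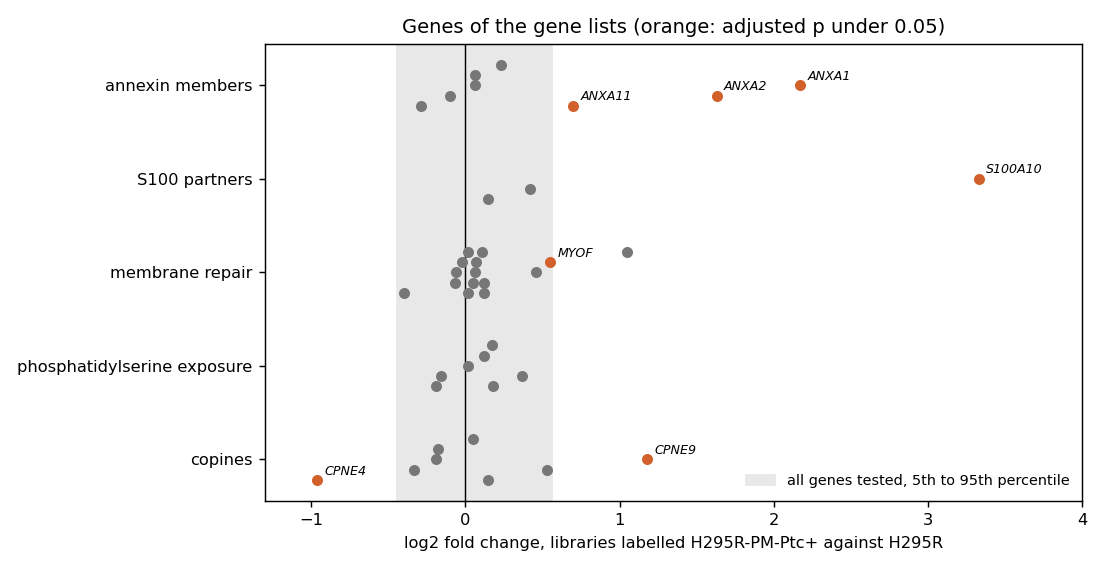
Log2 fold change of each tested gene of the annexin family and of 4 gene lists (points, spread vertically for legibility), with S100A11 left out because of its few counts in the libraries labelled H295R. Grey marks the range from the 5th to the 95th percentile of all tested genes (-0.44 to 0.56) and orange an adjusted p under 0.05, and ANXA1, ANXA2, ANXA11, S100A10, CPNE9 and CAV1 (1.05, adjusted p = 0.161) lie above this range, MYOF at its edge and CPNE4 below it.

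Markers of other cell types moved with the groups as follows. In bulk RNA, fewer cells of a type and less RNA per cell cannot be told apart. All 4 tested epithelial markers of 6 were called higher, against 2.42% of all tested genes (KRT8 log2 fold change 2.11, KRT7 1.33, KRT18 1.30 and EPCAM 0.92), of which DESeq2 did not call KRT7 (adjusted p = 0.0851), with summed levels of 3.81 to 5.24 against 11.5 to 12.2 CPM, KRT19 at 0 and CDH1 at 3 to 5 counts. Of 8 fibroblast markers, 3 were tested. THY1 was called higher, against 2.42% of all tested genes, and FAP too with the replicate block (adjusted p = 0.000433), against 12.1%. COL1A1 was not called (log2 fold change 0.21, adjusted p = 0.455). Among those not tested, PDGFRA and PDGFRB had lower means and COL1A2 and DCN higher ones, at 12 counts or fewer per library, and LUM was at 0. The summed fibroblast markers ran from 44.7 to 49.9 against 57.1 to 61.9 CPM, mostly FAP (means 37.3 and 47 CPM). Of the leukocyte markers, PTPRC and CD68 had 0 counts in all libraries. Endothelial markers (0 of 6 tested) summed to 0.551 to 0.753 against 0.822 to 1.08 CPM, and chromaffin markers (1 of 4 tested, none called by edgeR or DESeq2 or at an unadjusted p under 0.05) to 0.787 to 0.809 against 1.04 to 1.53 CPM, with DBH and PNMT at 0. Their part in the change of ANXA1, ANXA2 and ANXA11 was not tested.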

How the data were processed

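RNA of 3 libraries labelled H295R and 3 labelled H295R-PM-Ptc+ was sequenced in paired reads. Alignment was to hg38 with STAR 2.4.0a, and featureCounts (by strand, multiply mapped reads at their primary position, Ensembl genes) gave the table. The authors deposited these raw counts unfiltered and not normalized. The study names a stranded mRNA kit and the labels a total RNA kit with polyA RNA. The row of the table with no gene name held 0 counts.

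Counts were normalized by TMM, and the tests were glmQLFit and glmQLFTest of edgeR 4.0.16 under R 4.3.3, with filterByExpr and group as the only term, 3 against 3 libraries, on all 16710 genes that passed the filter. A gene was called at an adjusted p under 0.05. SDs are of 3 libraries. Replicates with the same number were taken as pairs: the correlation across genes of their deviations from the mean of each group was 0.497, 0.307 and 0.228, against -0.352 to 0.150 for other numbers. The replicate block, DESeq2 1.42.0, limma-voom (limma 3.58.1), other size factors, other filters, sums with pseudogenes and leaving out each library were alternatives, and leaving out both libraries numbered 1 was added after the data were seen. The functions were tested on simulated data with 200 changed genes. The chi-square per gene between replicates of a group was 6.07 to 28.8, above the level of counting error.

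The members, gene lists and naming rule were chosen with earlier results of these data known. Named are all members, every other annexin or ANXA2 pseudogene with a count, the genes called in each list (at most 4, by size), the S100 partners, PTCH1 and the 3 genes most like ANXA1 and ANXA2. The genes near each locus, PDCD6, PEF1, CAV1, AHNAK, STAR, CYP11A1, FAP, COL1A1, COL1A2, DCN, PDGFRA, PDGFRB and markers at 0 were named after their values were seen. Some of the planned gene lists and markers are not reported here. Promoters came from RefSeq (GRCh38.p14). Figures were drawn with matplotlib 3.10.9 in Python 3.11.15.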

Additional observations from a re-analysis of the deposited data

How the results depend on the processing

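ANXA1, ANXA2, ANXA11 and S100A10 kept their direction and stayed called under the 15 alternatives (log2 fold changes 1.88 to 2.28, 1.49 to 1.78, 0.65 to 0.74 and 2.86 to 3.57; highest adjusted p = 0.00745, 0.0125, 0.0189 and 0.0132), and 3 to 4 members were called in each. Leaving out 1 library turned ANXA5 (-0.03 to 0.10) and brought ANXA2R to 0.00 (0.00 to 0.59); the cause was not tested. PTCH1 ranged from -0.91 to -0.67. Without both libraries numbered 1, which called 12.0% of the genes tested, ANXA7 was at -0.02, and 4 S100 partners, 2 genes of membrane repair and 1 copine were called. With the replicate block, which called 22.5% of all tested genes, 4 of 4 S100 partners, 3 of 15 genes of membrane repair, 4 of 7 of phosphatidylserine exposure and 4 of 8 copines were called, and the block ended no member's call. At least 10 counts in every library, which tests fewer genes, left 1 S100 partner and 0 genes of the annexin A1 receptors and phospholipase. DESeq2 called 0 genes of the annexin A1 receptors and phospholipase and 1 copine. Leaving out 1 library gave 0 to 1 calls for the annexin A1 receptors and phospholipase, for membrane repair and for the copines. Low counts limit ANXA3, ANXA9, ANXA2R, PLA2G4A and the formyl peptide receptors.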
